A study of Homo sapiens with 4 samples.

Results

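Metallothioneins are small cysteine-rich proteins that bind zinc and copper in the cell, and their genes were followed here with a zinc-sensing factor and a zinc exporter of the same system. The 10 genes described were chosen by name: the metallothioneins MT1A, MT1E, MT1F, MT1G, MT1M, MT1X, MT2A and MT3, the metal-responsive transcription factor MTF1 and the zinc exporter SLC30A1. All 10 were present among the 56304 genes of the count table, and 6 of them (MT2A, MT1E, MT1X, MT1M, MTF1 and SLC30A1) were among the 15529 genes with enough counts to be tested. MT1G, MT1A, MT1F and MT3 had fewer than 10 counts in every library and were described by their counts alone.

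The libraries were made from spheroids of the human melanoma line MV3 carrying the nuclear marker H2B-GFP, each begun from 50000 cells and grown for 2 days in collagen I, with no drug or gene perturbation in either group. The core was removed under a fluorescence stereomicroscope with a punch of 1 mm, and the ring of cells that had moved out into the collagen, the invasion zone, was then collected with a punch of 3 mm. Each zone gave 2 libraries, replicates 1 and 2, from low-input total RNA. As the punch passed vertically through the gel, cells that had left the spheroid above or below it could be taken with the core. All libraries came from 1 cell line, no source used here says that the replicates were separate cultures, and p-values therefore measure only the spread between these samples. The zones are bulk samples, so fewer cells of a type and less RNA per cell cannot be told apart.

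Metallothioneins bind zinc and copper through cysteines, exchange zinc with other proteins and take part in the defence against cadmium and oxidants. When free zinc rises, the zinc-finger protein MTF1 binds metal response elements in the promoters of metallothionein genes and of SLC30A1, whose product moves zinc out across the plasma membrane. MT2A and the MT1 genes are expressed in many tissues and also respond to glucocorticoids, whereas MT3 is known mainly from brain.

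The MT1 and MT2A genes are close relatives, and the coding sequences of the 3 most abundant are shown because reads from one copy can resemble another. Capitals mark the bases at which a gene differed from MT2A, over 183 coding bases from the start codon up to the stop codon (GENCODE release 44, GRCh38).
MT2A: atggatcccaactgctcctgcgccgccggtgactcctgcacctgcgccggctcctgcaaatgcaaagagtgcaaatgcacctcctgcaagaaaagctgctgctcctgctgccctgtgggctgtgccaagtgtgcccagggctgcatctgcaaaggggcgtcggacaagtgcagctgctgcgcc
MT1E: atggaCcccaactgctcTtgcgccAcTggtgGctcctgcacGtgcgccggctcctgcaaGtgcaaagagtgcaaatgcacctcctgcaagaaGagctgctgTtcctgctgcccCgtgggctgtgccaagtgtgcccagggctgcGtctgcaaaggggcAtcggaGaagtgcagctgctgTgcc
MT1X: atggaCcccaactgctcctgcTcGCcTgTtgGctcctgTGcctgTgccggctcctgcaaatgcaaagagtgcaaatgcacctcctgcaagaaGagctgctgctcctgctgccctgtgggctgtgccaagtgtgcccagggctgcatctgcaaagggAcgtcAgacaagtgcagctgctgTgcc
MT1E and MT1X each differed from MT2A at 14 positions, an identity of 92.3%. Among the other MT1 members, the identity to MT2A ran from 89.6% for MT1M to 95.1% for MT1G. MT3, with 204 coding bases, was not compared. Over the annotated transcript, 20.3% of the exact 50-base stretches of MT1X, 11.1% of those of MT2A and 5.3% of those of MT1E also occurred elsewhere in the genome. No 100-base stretch of any of the 8 metallothioneins did so. The authors counted uniquely mapped reads, and the read length is not given in the sources used here, so reads from these shared stretches could be missing from the counts.

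The 8 metallothioneins lie together on chromosome 16, with MT3 at chr16:56589074-56591088, MT2A at chr16:56608584-56609497, MT1E at chr16:56625475-56627112 and MT1X at chr16:56682470-56684196 (GRCh38). Of the 8, MT1G (chr16:56666730-56668065) is on the minus strand and the others are on the plus strand. MTF1 (chr1:37809574-37859592) and SLC30A1 (chr1:211571568-211579161) are both on the minus strand of chromosome 1. The 250 bases before the annotated start of MT2A (chr16:56608334-56608583) and of MT1X (chr16:56682220-56682469) are shown because their metal response elements are what MTF1 is known to bind. The sequences are RefSeq's, for GRCh38.p14 on the plus strand, and capitals mark the core of that element, TGCACNC or TGCGCNC on either strand.
MT2A: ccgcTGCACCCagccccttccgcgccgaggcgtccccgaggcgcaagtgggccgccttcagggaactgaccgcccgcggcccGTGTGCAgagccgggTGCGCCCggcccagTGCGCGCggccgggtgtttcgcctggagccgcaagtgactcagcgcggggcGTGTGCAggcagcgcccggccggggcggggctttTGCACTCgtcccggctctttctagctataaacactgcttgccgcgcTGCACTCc
MT1X: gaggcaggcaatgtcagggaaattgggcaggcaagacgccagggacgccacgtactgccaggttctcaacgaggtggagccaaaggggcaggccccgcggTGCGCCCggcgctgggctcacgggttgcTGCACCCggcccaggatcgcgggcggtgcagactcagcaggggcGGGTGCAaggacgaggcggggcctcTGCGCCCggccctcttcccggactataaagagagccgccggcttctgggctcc
The MT2A window held 7 matches and the MT1X window held 4. The windows of the same length before SLC30A1 and MTF1 held 1 and 0 matches. Of 35116 RefSeq promoter windows of this length, 24.8% held at least 1 match and 0.37% held 4 or more. A match is a run of letters and was not tested for binding.

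The libraries held 36363358 counts (core 1), 14983135 (core 2), 37591782 (invasion 1) and 11789243 (invasion 2). A 3-count floor therefore stood between 0.0798 and 0.2545 CPM (counts divided by the library total, scaled to 1000000), and counting intervals given below cover counting error only. Of the markers of the melanocyte lineage, SOX10 and TYR had 0 counts in all 4 libraries, and DCT had 1 count in all. MITF stood between 1.70 and 3.39 CPM, MLANA between 0.60 and 0.96, PMEL between 0.27 and 1.02 and TYRP1 between 0.14 and 0.51. S100B had at most 3 counts in any library. By contrast AXL, a receptor tyrosine kinase of dedifferentiated melanoma, reached 623 to 1220 CPM. NGFR, a receptor also listed for the dedifferentiated state, had at most 2 counts in any library. The markers of other cell types PTPRC, CDH5, EPCAM and KRT5 had at most 7 counts in any library. PECAM1, an endothelial adhesion molecule, moved with the zone, at 17.8 CPM in core 1, 7.47 in core 2, 5.21 in invasion 1 and 0.933 in invasion 2, while CDH5, which also marks endothelium, was near 0, and the part of PECAM1 in the results below was not tested.

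MT2A was the most abundant member in every library, with 2446 CPM in core 1, 1120 in core 2, 1502 in invasion 1 and 684 in invasion 2. Replicate 1 was the higher in both zones and the groups overlapped, since invasion 1 lay above core 2. By mean CPM it ranked 27 of all genes in the core and 56 in the invasion zone, with 1783 ± 938 (SD, n = 2) against 1093 ± 579 CPM (SD, n = 2). The fitted log2 fold change, invasion zone over core, was -0.72 (SE 0.51), and it did not pass the edgeR quasi-likelihood test (Benjamini-Hochberg adjusted p = 0.422). Within each replicate the core was higher by nearly the same factor, 1.63 (95% counting interval 1.61 to 1.65) in replicate 1 and 1.64 (1.59 to 1.68) in replicate 2. The difference between replicates was larger than that between zones, 2.18-fold in the core and 2.20-fold in the invasion zone. Once the edgeR fit had a term for the replicate number (the replicate block), the log2 fold change of MT2A was -0.72 (SE 0.07, adjusted p = 0.000277), below the 2-fold minimum used for a call. Values with the block take same-numbered libraries as pairs, which no source used here states. The unblocked value rested on which libraries were used, from -0.02 without core replicate 1 and -0.26 without invasion replicate 2 to -1.18 without core replicate 2 and -1.41 without invasion replicate 1.

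MT1E, a second inducible metallothionein, had 249 CPM in core 1, 165 in core 2, 184 in invasion 1 and 121 in invasion 2. As for MT2A, invasion 1 lay above core 2 and the groups overlapped, with replicate 1 above replicate 2 by 1.51-fold in the core and 1.52-fold in the invasion zone. The core held 1.36 times the level of the invasion zone in replicate 1 (1.31 to 1.40) and again 1.36 times in replicate 2 (1.27 to 1.45). The log2 fold change was -0.45 (SE 0.29, edgeR adjusted p = 0.381), and with the replicate block -0.45 (SE 0.07, adjusted p = 0.00198), under 2-fold. Without core replicate 1 the unblocked value was -0.09 and without invasion replicate 2 it was -0.18, against -0.73 without core replicate 2 and -0.80 without invasion replicate 1.

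MT1X, another metal-inducible copy at the far end of the cluster from MT2A, had 72.0 CPM in core 1, 53.9 in core 2, 31.9 in invasion 1 and 28.8 in invasion 2. The 2 invasion zone libraries were the lowest, without overlap, and replicate 1 exceeded replicate 2 by 1.34-fold in the core and 1.11-fold in the invasion zone. The core held 2.26 times (2.11 to 2.42) the invasion zone level in replicate 1 and 1.87 times (1.65 to 2.13) in replicate 2. The log2 fold change was -1.06 (SE 0.20), with an unadjusted p of 0.00232 and an adjusted p of 0.112 in edgeR's quasi-likelihood test. With the replicate block it was -1.06 (SE 0.11, adjusted p = 0.000277), which made MT1X the only member called lower in the invasion zone. Of its 404 annotated transcript bases, 165 are shared on the same strand with the gene RP11-343H19.2, which had 0 counts in all 4 libraries. Whether reads from these shared bases were counted for MT1X was not tested, and its level per kilobase below uses all 404 bases. The unblocked log2 fold change was -0.81 without core replicate 1 and -0.99 without invasion replicate 2, both under the 2-fold minimum. It was -1.15 without invasion replicate 1 and -1.27 without core replicate 2.

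**Figure D1:**
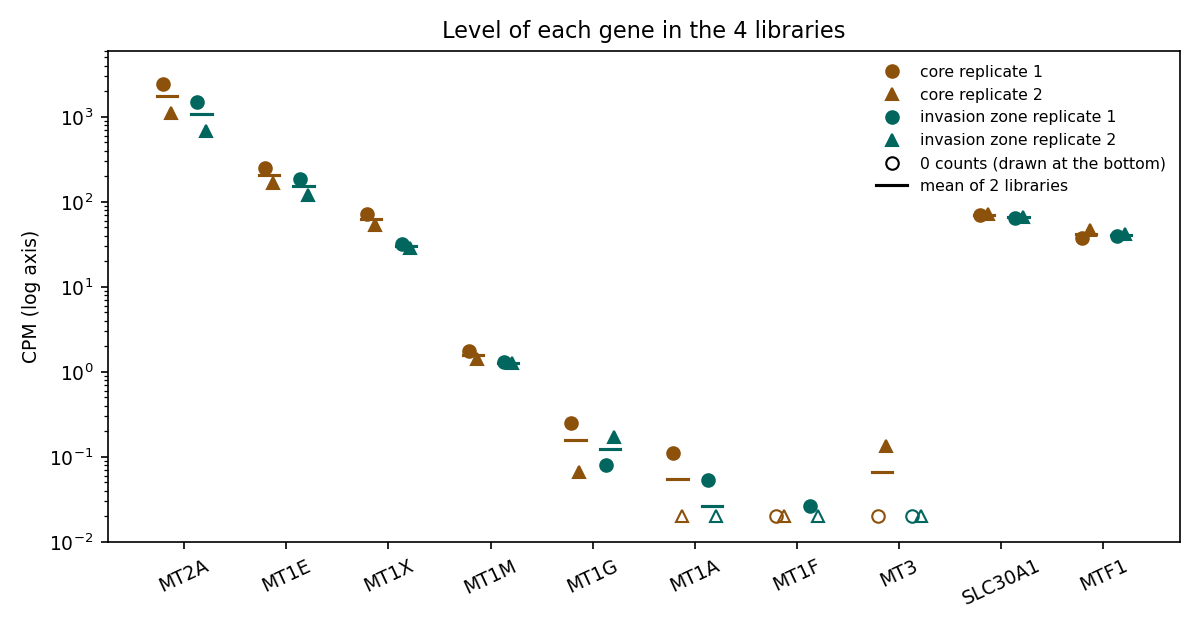
Level of each of the 10 genes in the 4 libraries, in CPM on a log axis, with brown symbols for core, green for invasion zone, circles for replicate 1, triangles for replicate 2, short bars for the mean of 2 libraries and open symbols at the bottom for 0 counts. MT2A stands highest, with 2446 and 1120 CPM in the core and 1502 and 684 in the invasion zone, while the symbols of SLC30A1 and MTF1 nearly coincide across zones.

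MT1M, expressed at a low level, had 1.76 CPM in core 1, 1.40 in core 2, 1.30 in invasion 1 and 1.27 in invasion 2, on 64, 21, 49 and 15 counts. The invasion zone libraries were the lower ones, but the counting intervals of the core to invasion zone ratio reached from 0.916 to 2.00 in replicate 1 and from 0.541 to 2.30 in replicate 2, so a change was not detectable at this depth (log2 fold change -0.34, SE 0.37, edgeR adjusted p = 0.603).

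The other 4 metallothioneins were at or near the floor. MT1G had 9, 1, 3 and 2 counts in core 1, core 2, invasion 1 and invasion 2, MT1A had 4, 0, 2 and 0, MT1F had 1 count, in invasion 1, and MT3 had 2 counts, in core 2. For MT1G the core to invasion zone ratio was 3.10 in replicate 1 (0.774 to 17.8) and 0.393 in replicate 2 (0.00667 to 7.56), so neither direction could be read. Most metallothionein RNA thus came from MT2A, MT1E and MT1X.

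MTF1, which carries the zinc signal to the metallothionein promoters, had 37.2 CPM in core 1, 46.4 in core 2, 39.5 in invasion 1 and 42.2 in invasion 2. The groups overlapped, with replicate 1 slightly higher in the invasion zone (core to invasion zone ratio 0.942, 0.874 to 1.01) and replicate 2 slightly higher in the core (1.10, 0.979 to 1.24). The log2 fold change was -0.04 (SE 0.17, edgeR adjusted p = 0.904), and its sign was positive with offsets for GC content and length, with thinned counts and without core replicate 2.

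SLC30A1, the zinc exporter, had 69.4 CPM in core 1, 72.3 in core 2, 64.8 in invasion 1 and 66.9 in invasion 2. The invasion zone libraries were both below the core libraries, by a small margin. The core to invasion zone ratio was 1.07 (1.01 to 1.13) in replicate 1 and 1.08 (0.985 to 1.19) in replicate 2, and the log2 fold change of -0.12 (SE 0.13) did not pass the edgeR test with or without the block (adjusted p = 0.320 and 0.623).

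Levels were compared between genes per kilobase of annotated transcript. On this scale the order was MT2A, MT1E, MT1X, SLC30A1, MTF1 and MT1M in all 4 libraries. In the core, the means were 4447 ± 2338 CPM per kilobase for MT2A, 294 ± 84.9 for MT1E, 156 ± 31.7 for MT1X, 12.0 ± 0.359 for SLC30A1, 5.27 ± 0.818 for MTF1 and 3.97 ± 0.637 for MT1M (SD, n = 2 each). MTF1 and MT1M were the closest neighbours in that order.

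The 8 metallothioneins together took 2770 CPM in core 1, 1341 in core 2, 1720 in invasion 1 and 836 in invasion 2. MT2A made up 88.3% of this sum in core 1, 83.6% in core 2, 87.4% in invasion 1 and 81.9% in invasion 2. The share of MT1E was higher in the invasion zone within each replicate, 10.7% (Wilson interval 10.5 to 10.9) against 9.01% (8.83 to 9.19) in replicate 1 and 14.5% (13.9 to 15.2) against 12.3% (11.9 to 12.8) in replicate 2. The share of MT1X was lower there, 1.85% (1.75 to 1.96) against 2.60% (2.51 to 2.70) in replicate 1 and 3.45% (3.11 to 3.83) against 4.02% (3.76 to 4.30) in replicate 2. Within same-numbered libraries, MT1E and MT1X thus moved in opposite directions as a part of the family total, while both were lower in CPM in the invasion zone. Without that pairing the zones overlapped, since the MT1E share was higher in core 2 than in invasion 1. Likewise, the MT1X share was higher in invasion 2 than in core 1, and its intervals in replicate 2 overlapped.

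**Figure D2:**
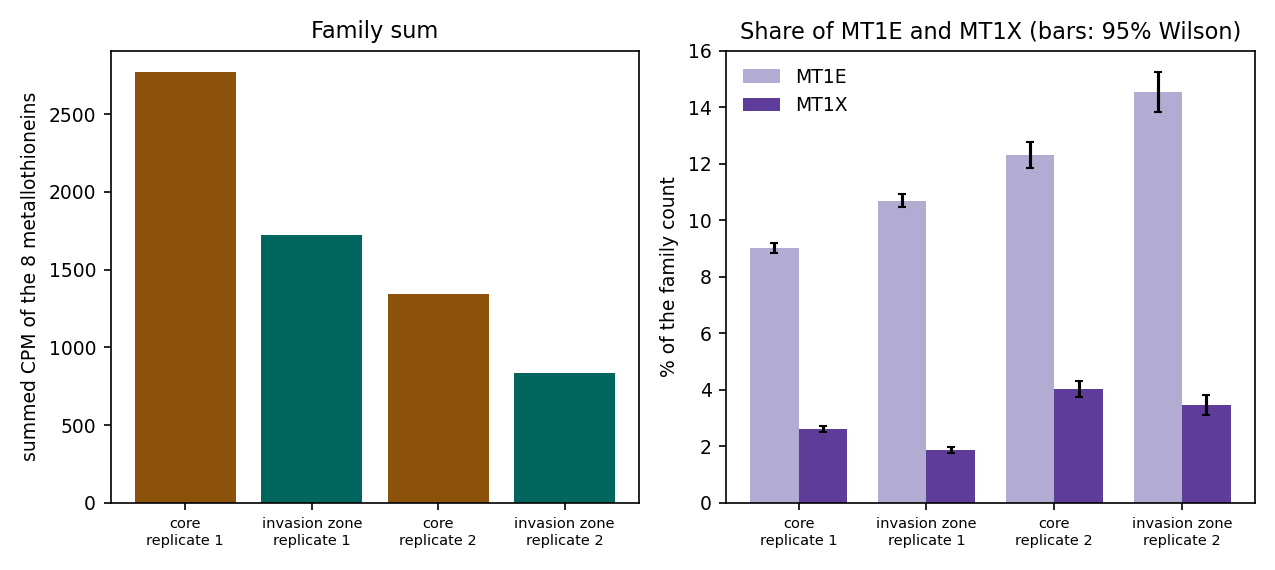
Left, summed CPM of the 8 metallothioneins in each library, from 2770 in core 1 to 836 in invasion 2. Right, share of that family count taken by MT1E and by MT1X in percent with 95% Wilson intervals, where within each replicate MT1E is higher and MT1X lower in the invasion zone.

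Set against MT2A within a replicate, the other members differed in their zone ratio. The log2 ratio of MT1E lay 0.26 above that of MT2A in replicate 1 (counting interval 0.22 to 0.31) and 0.27 above it in replicate 2 (0.17 to 0.37). The ratio of MT1X lay -0.47 from it (-0.57 to -0.37) and -0.19 (-0.38 to -0.0031). MTF1 lay 0.79 above MT2A (0.68 to 0.90) and 0.57 above it (0.40 to 0.75), and SLC30A1 0.61 (0.52 to 0.69) and 0.60 (0.46 to 0.74). The intervals of MT1M included 0 in both replicates. These intervals cover counting only, and each rests on 1 pair of libraries.

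**Figure D3:**
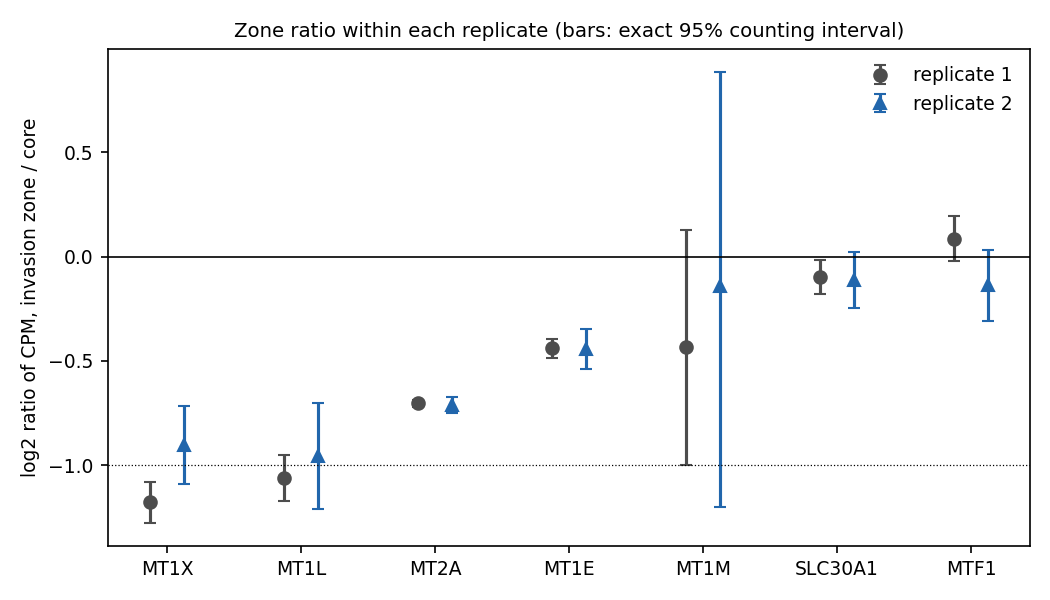
Log2 ratio of invasion zone to core CPM in replicates 1 (circles) and 2 (triangles) for the 6 tested members and MT1L, with exact 95% counting intervals, a line at equal levels and a dotted line at 2-fold lower. The points of MT2A lie at -0.70 and -0.71 and those of MT1E at -0.44 in both replicates, while MTF1 lies at 0.09 and -0.14.

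In 3 of the 6 tested members (MT1X, MT1M and SLC30A1) the higher invasion zone library was below the lower core library. Over all tested genes, 30.0% had that pattern and 28.3% had the reverse. Log2 fold changes had a median of -0.40 over the 6 tested members and -0.58 over the 4 tested metallothioneins, against -0.01 over all 15529 genes. Without the block, edgeR called no gene at an adjusted p under 0.05 and a 2-fold change, 0% higher and 0% lower. At an unadjusted p under 0.05 and 2-fold it counted 495 genes higher (3.19%) and 994 lower (6.40%), among them MT1X and no other member, whereas DESeq2 called 353 and 534 by adjusted p and limma voom called none. With the block, 3.79% of genes were called higher and 7.38% lower, with MT1X the 1 member among the latter. At an adjusted p under 0.05 of any size with the block, 20.1% of genes were lower and 20.0% higher, and 3 of the 6 members (MT2A, MT1E and MT1X) were lower.

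Among 13 further metallothionein loci, 3 had enough counts, all annotated as pseudogenes, with log2 fold changes from -1.02 to -0.73. MT2P1 had 134, 18, 82 and 5 counts in core 1, core 2, invasion 1 and invasion 2, and MT1XP1 had 47, 9, 27 and 5. Both were named after their values were seen, the zones overlapped in each, and neither passed with the block (edgeR adjusted p = 0.057 and 0.165). Some 50-base stretches of MT2A also occurred in MT2P1 and some of MT1X in MT1XP1, and misassigned reads were not tested for. MT1L, a copy between MT2A and MT1E, had 56.5 CPM in core 1, 29.9 in core 2, 27.1 in invasion 1 and 15.4 in invasion 2. Its groups did not overlap, with invasion 1 just below core 2, and the core to invasion zone ratio was 2.09 (1.94 to 2.25) in replicate 1 and 1.94 (1.63 to 2.31) in replicate 2. It was called lower with the block (log2 fold change -1.03, edgeR adjusted p = 0.000343) and not without it (-1.02, adjusted p = 0.190). The 186 annotated bases of MT1L are all shared with another annotated gene, so its counts are uncertain.

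No zinc transporter of either family was called. Of 5 tested zinc exporters of the SLC30 family, none was called with or without the block, and the median log2 fold change was -0.03. SLC30A7, the most abundant, stood at 309 CPM in core 1, 275 in core 2, 322 in invasion 1 and 256 in invasion 2, with overlapping groups. SLC30A4, an exporter into vesicles named here after its values were seen, had 37.8 CPM in core 1, 38.8 in core 2, 26.6 in invasion 1 and 23.9 in invasion 2, without overlap. With the block it was the 1 exporter lower at an adjusted p under 0.05 (log2 fold change -0.60, edgeR adjusted p = 0.00362), under 2-fold, and none was higher. None of 11 tested zinc importers of the SLC39 family was called, with a median of -0.19. At an adjusted p under 0.05 of any size with the block, 4 were lower and 1 higher, against 20.1% and 20.0% of all genes. The 4 lower ones were SLC39A6, SLC39A8, SLC39A9 and SLC39A11, and the higher one was SLC39A3, all named after their values were seen. SLC39A1, the most abundant, stood at 478, 545, 425 and 478 CPM in the same order of libraries.

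Of the 4 other genes known as MTF1 targets, PGF, a growth factor of the VEGF family, was called lower with the block. It had 3.60 CPM in core 1, 4.07 in core 2, 0.851 in invasion 1 and 1.19 in invasion 2, with no overlap (log2 fold change with the block -1.99, edgeR adjusted p = 0.00141). SLC39A10, a zinc importer and the most abundant of the 4, stood at 91.2, 96.3, 83.7 and 87.7 CPM and was not called. PGF was the only one of the 4 past an adjusted p under 0.05 of any size with the block. Over all genes, 20.1% were lower and 20.0% higher in this way.

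Of 12 copper genes, ATP7A, the copper-exporting ATPase, was called lower with the block. It stood at 52.9 CPM in core 1, 42.0 in core 2, 30.0 in invasion 1 and 17.7 in invasion 2, with no overlap (log2 fold change with the block -1.01, edgeR adjusted p = 0.000604). At an adjusted p under 0.05 of any size with the block, 2 of the 12 copper genes were lower and 2 were higher. Over all genes the shares were 20.1% and 20.0%. The lower copper genes were ATP7A and the SOD1 chaperone CCS, and the higher ones were the chaperone ATOX1 and SCO1. CCS, ATOX1 and SCO1 were named after their values were seen. The median of the copper list was 0.22, and SOD1, its most abundant gene and a copper and zinc enzyme, stood at 146, 134, 179 and 148 CPM.

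**Figure D4:**
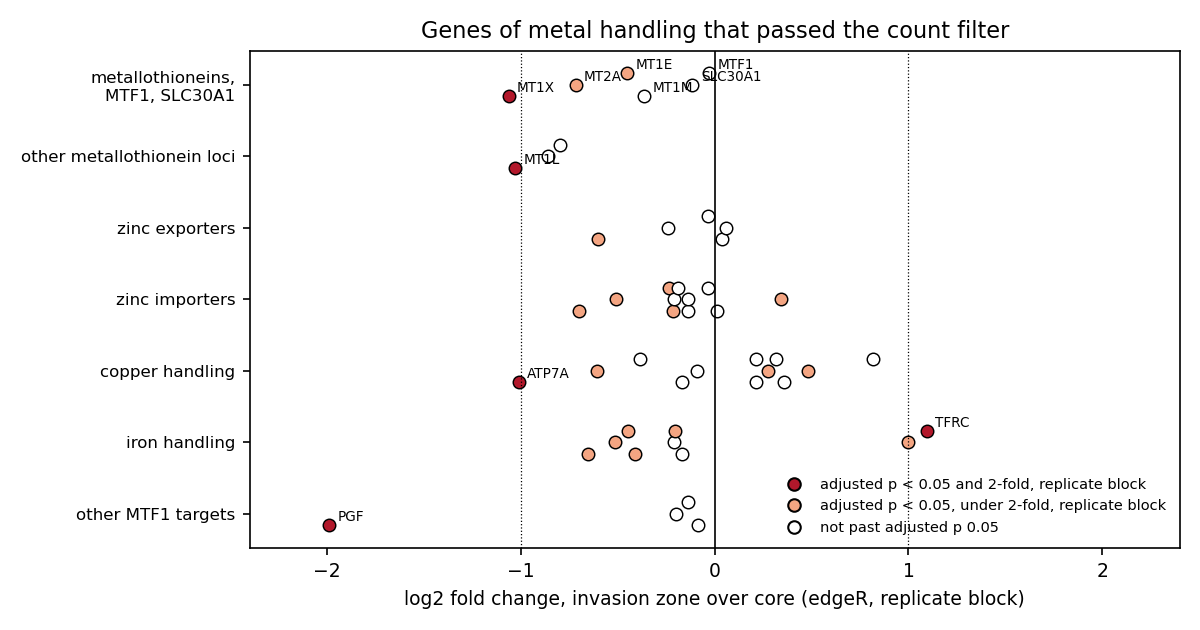
Log2 fold change, invasion zone over core, from the edgeR fit with the replicate block for the tested genes of each metal-handling list, with dotted lines at 2-fold. Orange and dark red points passed an adjusted p under 0.05, open points did not, and the dark red points MT1X (-1.06), MT1L (-1.03), ATP7A (-1.01), PGF (-1.99) and TFRC (1.10) also passed 2-fold.

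The genes whose pattern over the 4 libraries was most like that of a member were taken as those with the smallest Euclidean distance in centred log2 CPM, with no test. The 5 nearest to MT2A were CD81 (distance 0.08), LIPE-AS1, RP11-269F21.3, TPT1 (0.12) and SPON2. Of the 5 nearest to MT1X, 4 were OGFR-AS1 (0.06), SNAI3, CACFD1 and C7orf69 and 1 was a locus known only by a clone name (0.07), and those nearest to MTF1 were DOK3 (0.02), ANKRD13D, SPCS2P4, NT5C2 and C6orf136. Several of these genes were near the floor, where a distance can turn on a few counts. In invasion 2, with its floor at 0.2545 CPM, OGFR-AS1 stood at 0.17 CPM, LIPE-AS1 at 0.2545, and SNAI3 and SPON2 at 0.34. Others were far above it in that library, such as CD81 at 91.3 CPM and TPT1 at 177. The members themselves were left out of this comparison.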

How the data were processed

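Bulk RNA-seq of the core and invasion zone of MV3 spheroids was analysed, with 2 libraries per zone. The deposited table holds the authors' raw counts per gene. Before deposit, the authors removed ribosomal reads with Bowtie, filtered on quality, aligned to hg38 with STAR and counted uniquely mapped reads with HTSeq-count. Versions, annotation release, strand setting and read length were not given in the sources used here. For their own comparison the authors used DESeq2 with a 2-fold change and a p-value, not stated as adjusted or not. Column names give zone and replicate, by which they were matched to samples, and 0 columns were unused.

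Counts were divided by the library total for CPM. In R 4.3.3, edgeR 4.0.16 (quasi-likelihood test, TMM scaling) was fitted to the 15529 genes kept by filterByExpr (10 counts, total 15), with Benjamini-Hochberg adjustment over all of them. A call needed an adjusted p under 0.05 and a 2-fold change. The SE is the log2 fold change divided by the square root of F. Ratios within a replicate have exact conditional binomial intervals. Alternatives used DESeq2 1.42.0 and limma 3.58.1. The edgeR and limma voom fits, but not DESeq2, were also run on simulated data, with the outcome not given here. Gene positions and transcript lengths came from GENCODE release 44, in which 98.1% of the table's identifiers were found, and promoters from RefSeq, which gave 4 of the 10 genes.

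The core and then its corresponding invasion zone were taken from a dissected spheroid, and on that ground a blocked fit is given as well. No source used here states that the number marks a shared spheroid. Deviations from the mean of the zone correlated between libraries of the same number (r = 0.58 across 15529 genes). With 2 libraries per zone both pairs give this same value, so it does not establish the pairing. The fit without the block was the main one.

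The 10 members and the gene lists were chosen with earlier results of these data known. Besides the members, the text names the genes called in each list, the most abundant gene of each list, and the 5 genes nearest in pattern to MT2A, MT1X and MTF1, except 1 clone-named locus near MT1X that is left unnamed. Cell type markers and RP11-343H19.2, which overlaps MT1X, are named as well. Further genes of the lists fall outside these rules and are marked in the text as named after their values were seen.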

Additional observations from a re-analysis of the deposited data

How the results depend on the processing

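No gene was called higher or lower in the edgeR fit without the block, and the same held under RLE and upper-quartile scaling, a minimum of 10 counts in each library, limma voom, the older edgeR quasi-likelihood fit, no fold minimum, a GC content and length correction, and thinned counts. Other settings gave genes higher and lower of 81 and 191 without a low-count filter, 588 and 1146 with the replicate block, 584 and 1111 with the block and the GC content and length correction, 353 and 534 with DESeq2, 428 and 750 with DESeq2 and the block, 576 and 1088 with limma voom and the block, and 495 and 994 at an unadjusted p. Leaving out 1 library gave 8 to 693 higher and 108 to 969 lower, with the zone left at 1 library assumed to vary like the other. The number of members called lower was 0, and it was 1 (MT1X) with the replicate block, with DESeq2, with both, with limma voom and the block, with the block and the GC content and length correction, and at an unadjusted p, and 0 to 1 when a library was left out. No member was called higher under any setting. The log2 fold change of MTF1 was positive with the GC content and length correction (0.0020), with that correction and the block (0.0108), with thinned counts (0.0072) and, over the libraries left out, ran from -0.17 to 0.11. Those of MT2A, MT1E, MT1X, MT1M and SLC30A1 were negative under all 19 alternatives. The cause of these differences was not tested. Depth limits MT1G, MT1A, MT1F and MT3, and 2 libraries per zone limit each p.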

Other observations

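Metallothionein genes share their neighbourhood on chromosome 16 with unrelated genes, and 6 of 8 flanking genes were tested. BBS2, a component of the ciliary BBSome, was called lower, with 111 CPM in core 1, 103 in core 2, 56.4 in invasion 1 and 42.2 in invasion 2 (log2 fold change with the block -1.13, edgeR adjusted p = 0.00018). HERPUD1, an endoplasmic reticulum stress gene and the most abundant of the flanking genes, had 364 and 318 CPM in the core and 213 and 196 in the invasion zone, and with the block its change of -0.75 stayed under 2-fold (edgeR adjusted p = 0.000253). The median log2 fold change of the flanking genes was -0.05.

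Of 9 tested iron genes, TFRC, the transferrin receptor, was called higher with the block, with 199 CPM in core 1, 325 in core 2, 419 in invasion 1 and 713 in invasion 2 (edgeR log2 fold change with the block 1.10, adjusted p = 9.6e-05). FTL, the ferritin light chain, was the most abundant, at 5293, 5558, 4547 and 5191 CPM, and the list's median was -0.21. At an adjusted p under 0.05 of any size with the block, 5 iron genes were lower and 2 were higher. Over all genes the shares were 20.1% and 20.0%. The lower iron genes were FTH1, ACO1, FBXL5, SLC11A2 and NCOA4, and HMOX1 was the one higher beside TFRC. Apart from TFRC, all 6 were named after their values were seen. FTH1, the ferritin heavy chain, had 513 and 604 CPM in the core and 322 and 395 in the invasion zone (log2 fold change with the block -0.65, edgeR adjusted p = 0.000353), and HMOX1, which degrades heme, had 10.4 and 11.4 against 20.3 and 24.1 CPM (1.00, adjusted p = 0.00101). Of 7 tested glucocorticoid targets, the transcription factor KLF9 and the leucine zipper protein TSC22D3 were called lower with the block, and the kinase SGK1 was called higher. Of any size at an adjusted p under 0.05 with the block, 3 of the 7 were lower and 4 higher. Over all genes the shares were 20.1% and 20.0%. Beside the genes called, they were PER1 (lower) and FKBP5, DUSP1 and ERRFI1 (higher). PER1, FKBP5 and DUSP1 were named after their values were seen. KLF9 had 30.0 and 10.3 CPM in the core and 5.03 and 1.36 in the invasion zone, TSC22D3 had 37.6 and 36.3 against 17.9 and 12.9, and SGK1 had 30.6 and 56.7 against 90.3 and 128 CPM. ERRFI1, the most abundant of them, had 294 and 396 against 331 and 565 CPM.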
